A study of Homo sapiens with 40 samples.

Results

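This account covers 34 genes of ribosome production and growth metabolism that are commonly counted among the targets of MYC, in human lymphoma cells treated with an inhibitor of EZH2. The genes were taken from a list of names, drawn up with earlier results of these data known, and each was read from the brightest probe set that carried its symbol alone. Of the 34 genes, 27 had such a probe set, out of 19775 genes with one on the array, and all 27 were among the 15211 genes tested. The other 7 were not measured: NOP56, DKC1, PPAN and BOP1 lay only on probe sets with several symbols (4 genes), and DDX18, GNL3 and AIMP2 had no probe set under those symbols (3 genes). The 27 measured genes exceeded the median signal of all probe sets on each of the 40 arrays. By mean array signal, which also depends on the probe set, they ranked between the 56.2 percentile (UTP20) and the 99.7 percentile (HSPD1) of the tested genes.

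MYC is a transcription factor that binds DNA with its partner MAX, often at the E-box CACGTG, and drives cell growth. Ribosome production begins in the nucleolus, where RNA polymerase I makes the ribosomal RNA precursor, small nucleolar ribonucleoproteins (snoRNPs) modify it, and separate sets of assembly factors build the small and the large subunit. Growing B cells and lymphomas also need nucleotides, polyamines and folded mitochondrial proteins, and the set includes enzymes and chaperones for each.

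The study used 10 established diffuse large B-cell lymphoma lines. EZH2 is the methyltransferase that places the repressive H3K27 methyl mark, and GSK126 is a selective inhibitor of it. The treated cultures received 500 nM GSK126 and the control cultures 0.1% DMSO, and both ran for 72 h; each line gave 2 arrays per condition (40 arrays). The 7 EZH2 mutant lines, with the average GIC50 of GSK126 that the labels give for proliferation, were Pfeiffer (28 nM), WSU-DLCL2 (134 nM), KARPAS-422 (232 nM), SU-DHL-10 (448 nM), SU-DHL-6 (582 nM), DB (861 nM) and SU-DHL-4 (4828 nM). The 3 EZH2 wild type lines were HT (516 nM), OCI-LY-19 (1019 nM) and Toledo (13786 nM). The labels do not name the mutation, and each line is 1 established line, so the lines and not the arrays are the replicates of a genotype. The labels call the duplicates biological but do not say how the cultures were separated, so p-values within a line measure the spread between these arrays.

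Levels are given as log2 of the array signal plus a pseudocount of 17.72 (median of the arrays' lower quartiles), and a change is the GSK126 mean minus the DMSO mean on that scale, which understates the change of dim genes. A gene was called where its adjusted p, after Benjamini-Hochberg adjustment over all 15211 genes, was under 0.05 in limma. Signals depend on each probe set, so changes and levels are compared between lines, and a rank of signals between genes is no rank of transcript amounts. Duplicate arrays correlated at 0.982 to 0.989 over genes, and each of the 40 arrays matched an array of its own line best. The B cell markers MS4A1, CD79A, CD79B, PAX5, CD22 and CD74 (6 tested) had mean levels between 11.59 and 13.24. The tested T and NK cell markers averaged 5.47 to 9.82, myeloid markers 5.28 to 6.58, erythroid and endothelial markers 5.52 to 7.46, and stromal and epithelial markers 5.87 to 9.25, where the stromal gene DCN reached 14.14 and 14.37 on GSK126 arrays of KARPAS-422, against 13.89 and 13.85 on its DMSO arrays. Some markers changed in the same lines as the members, and some in a line where no member was called. In Pfeiffer 4 of 6 B cell markers rose and none fell (median 0.28), where 14.6% of all genes rose. In WSU-DLCL2 3 rose and none fell (median 0.18), where 13.9% of all genes rose. In KARPAS-422 2 rose and 1 fell (median 0.08), where 15.5% of all genes rose and 13.4% fell. In OCI-LY-19, without a called member, 3 rose and none fell (median 0.31), where 1.97% of all genes rose. In KARPAS-422 2 of 3 myeloid markers, all dim, fell (median -1.13), and 1 of 7 T and NK cell markers fell. The part of these markers in the changes below was not tested. In these bulk samples a lower level per cell and fewer cells with the transcript cannot be told apart.

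The E-box CACGTG, which MYC and MAX often bind, was looked for in the promoter windows of the members, because they are counted among the targets of MYC. Promoters were read from the RefSeq table for GRCh38.p14 as 250 bases before to 50 bases after each gene's start. Of the 27 measured members, 23 were in that table, and 12 of these (52.2%) held CACGTG, a palindrome that reads the same on both strands. Of all 27305 promoters in the table, 2030 (7.43%) held it. The members were listed as targets of MYC, so these shares are no independent support, and their difference was not tested. HSPD1 and HSPE1 hold the same site. NOLC1, NOP58, RRP12 and RRS1 were not in the table. A match is a description of these letters and shows no binding. The 12 matches are shown with up to 10 bases on either side, 5′ to 3′ on the gene's strand, with the E-box in capitals.

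FBL: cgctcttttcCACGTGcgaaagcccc
UTP20: tttttccgtcCACGTGacccactcag
WDR43: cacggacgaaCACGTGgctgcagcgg
RRP9: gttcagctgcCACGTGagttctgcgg
BYSL: cttcagtcccCACGTGcgatccttcc
NOP2: gtccggattgCACGTGgagggccgc
PES1: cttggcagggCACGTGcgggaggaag
MRTO4: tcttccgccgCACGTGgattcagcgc
PPAT: cggagatttcCACGTGcagcaaatac
SRM: ggccgggcccCACGTGgcccctggag
HSPD1: gccctggcgaCACGTGaaaaaatcac
HSPE1: gtgattttttCACGTGtcgccagggc

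HSPE1 and HSPD1, the lid and the barrel of the mitochondrial chaperonin, stand head to head on chromosome 2 and share the E-box shown for both. Their starts lie 105 bases apart (HSPE1 at 197500379 on the plus strand and HSPD1 at 197500274 on the minus strand), and their windows overlap over 204 bases. The whole HSPE1 window, chr2:197500129-197500428 on the plus strand, is printed because both genes are compared below, and the MRTO4 window, chr1:19251555-19251854 on the plus strand, because MRTO4 had the smallest p in the test of response among lines. CAD and NOP16, which also differed among lines, had no CACGTG in this window.

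HSPE1: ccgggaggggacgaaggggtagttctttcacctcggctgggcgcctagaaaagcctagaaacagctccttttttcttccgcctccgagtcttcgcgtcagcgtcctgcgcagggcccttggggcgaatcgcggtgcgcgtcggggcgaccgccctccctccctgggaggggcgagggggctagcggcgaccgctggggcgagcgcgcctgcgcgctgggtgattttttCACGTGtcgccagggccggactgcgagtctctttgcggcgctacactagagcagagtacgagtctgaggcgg
MRTO4: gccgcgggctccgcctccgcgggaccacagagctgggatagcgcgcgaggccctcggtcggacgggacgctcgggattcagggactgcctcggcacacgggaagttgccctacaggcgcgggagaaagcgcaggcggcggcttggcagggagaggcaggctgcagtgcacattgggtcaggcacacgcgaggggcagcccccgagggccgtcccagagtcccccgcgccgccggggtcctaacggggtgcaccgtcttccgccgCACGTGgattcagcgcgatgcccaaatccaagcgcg

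Under DMSO the members differed among lines, and WSU-DLCL2 was the low line. All 27 members passed the moderated F test (limma) for a difference in DMSO level among the 10 lines, where 84.6% of all tested genes did. In WSU-DLCL2, 25 of the 27 members were below their own mean over lines and 12 had their lowest level of the 10 lines. The median member stood at -0.53 from its mean in WSU-DLCL2 and at -0.29 in SU-DHL-4, where 22 members were below their mean. The medians were highest in Toledo (0.30), SU-DHL-6 (0.29) and KARPAS-422 (0.29). The medians of all tested genes, centred in the same way, lay between -0.05 and 0.02. The sample descriptions carry an unexplained code with 3 values, and each line falls wholly under 1 of them, so a change within a line lies within 1 code while a level set between lines can span codes.

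**Figure D1:**
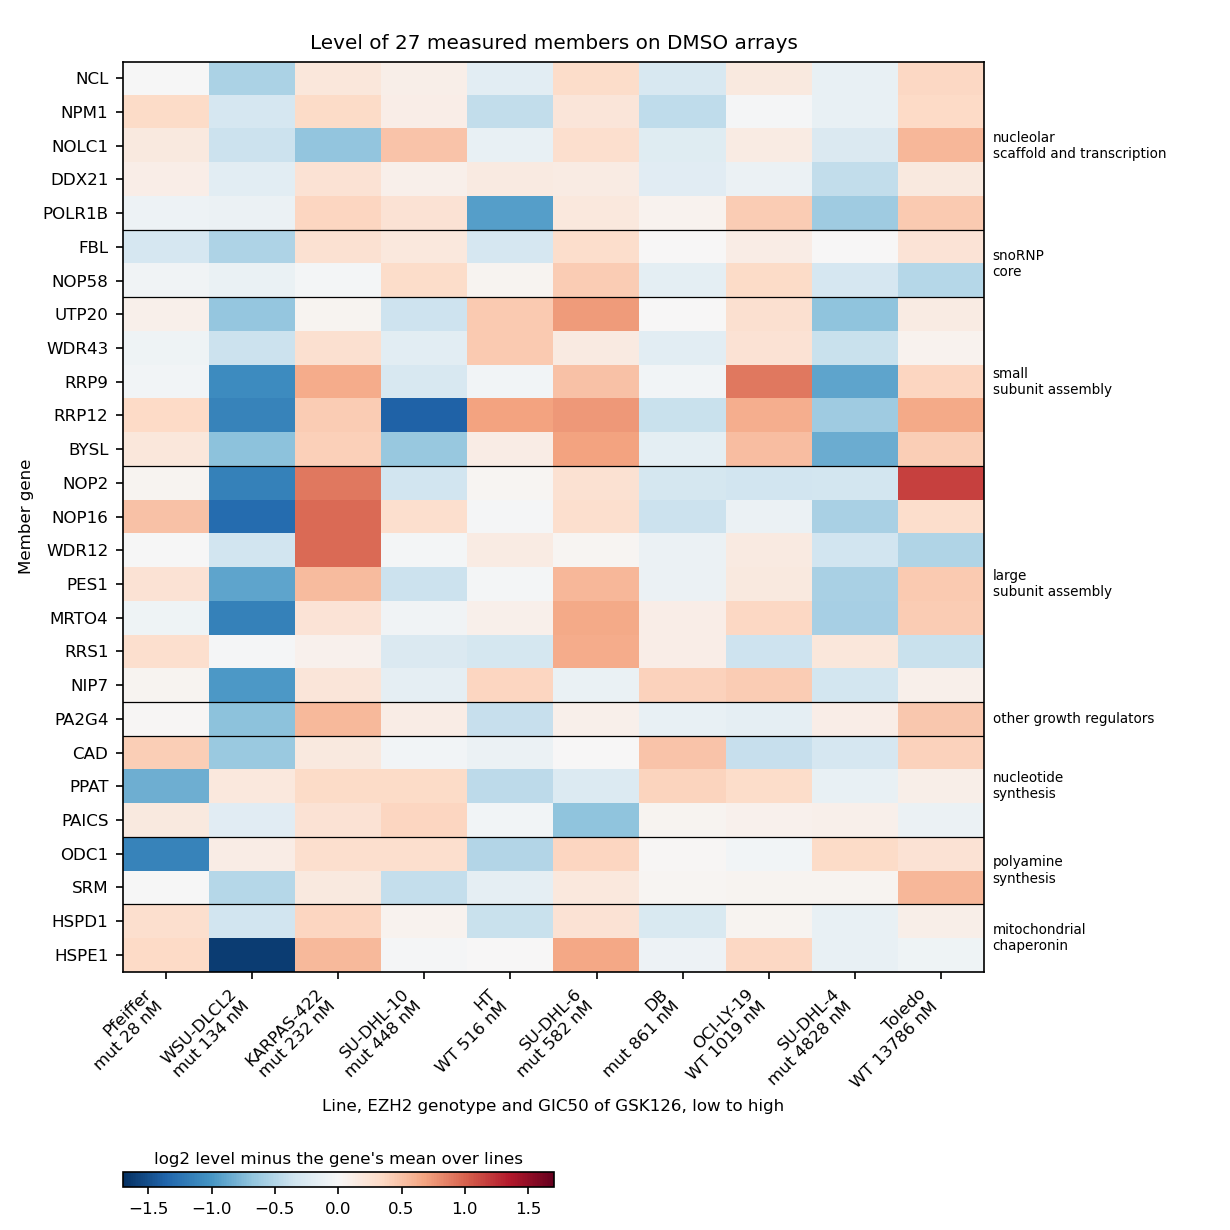
DMSO level of the 27 measured members (down the page, by role) in the 10 lines (across, by GIC50, with mut for EZH2 mutant and WT for wild type). Colour gives the mean log2 level of 2 DMSO arrays minus the gene's mean over lines, and the WSU-DLCL2 column is mostly blue, with 25 of 27 members below their mean.

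The members that varied most under DMSO were RRP12, NOP2, NOP16 and RRP9. RRP12, a factor in small subunit maturation and export, had an SD over the 10 lines of 0.80, with its lowest level in SU-DHL-10 (7.87) and its highest in SU-DHL-6 (9.98). NOP2, a methyltransferase of the large subunit RNA, lay between 9.68 in WSU-DLCL2 and 11.98 in Toledo, a 4.94-fold span (SD 0.66). NOP16, a large subunit assembly factor, lay between 10.50 in WSU-DLCL2 and 12.77 in KARPAS-422 (SD 0.63). RRP9, a protein of the U3 snoRNP, lay between 8.72 in WSU-DLCL2 and 10.67 in OCI-LY-19 (SD 0.63). The steadiest were the helicase DDX21 (SD 0.21, 13.46 to 14.11) and HSPD1 (SD 0.26, 13.93 to 14.67). The median SD was 0.40 over the members and 0.50 over all tested genes. Neighbouring lines in these orders could be closer than duplicate arrays, whose pooled SD was 0.08 for the median member (0.05 to 0.27): RRP12, for example, had 9.86 in OCI-LY-19 and 9.89 in Toledo.

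No member's DMSO level was called between the 7 mutant and the 3 wild type lines in limma over the 10 line means (0.0526% of all genes were). The differences ranged between -0.93 and 0.49, mutant minus wild type, the smallest adjusted p was 0.591, and 1 member, RRS1, had an unadjusted p under 0.05 (7.78% of all genes). No member was called for a slope of DMSO level on log10 GIC50 either (0.0% of all genes, smallest adjusted p 0.721), and 1 member, ODC1, had an unadjusted p under 0.05 (6.9% of all genes).

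GSK126 changed 22 of the 27 members in at least 1 line, and most of the calls were falls. Of all tested genes, 57.3% were called in at least 1 line. Falls in at least 1 line were found for 20 members, where 28.3% of all genes fell in 1 or more, and rises for 7 members, where 38% rose. Of 270 pairs of member and line, 46 were called (17%), 36 as falls (13.3%) and 10 as rises (3.7%), and of all pairs of gene and line 12.7% were called, 5.13% as falls and 7.55% as rises. The falls were most frequent in KARPAS-422, with 15 of 27 members against 13.4% of all genes, and in Pfeiffer, with 11 of 27 against 9.93%. In SU-DHL-6, 4 of 27 fell against 3.56% of all genes. RRP9, RRP12, PES1, RRS1 and ODC1 (5 members) were called in no line.

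**Figure D2:**
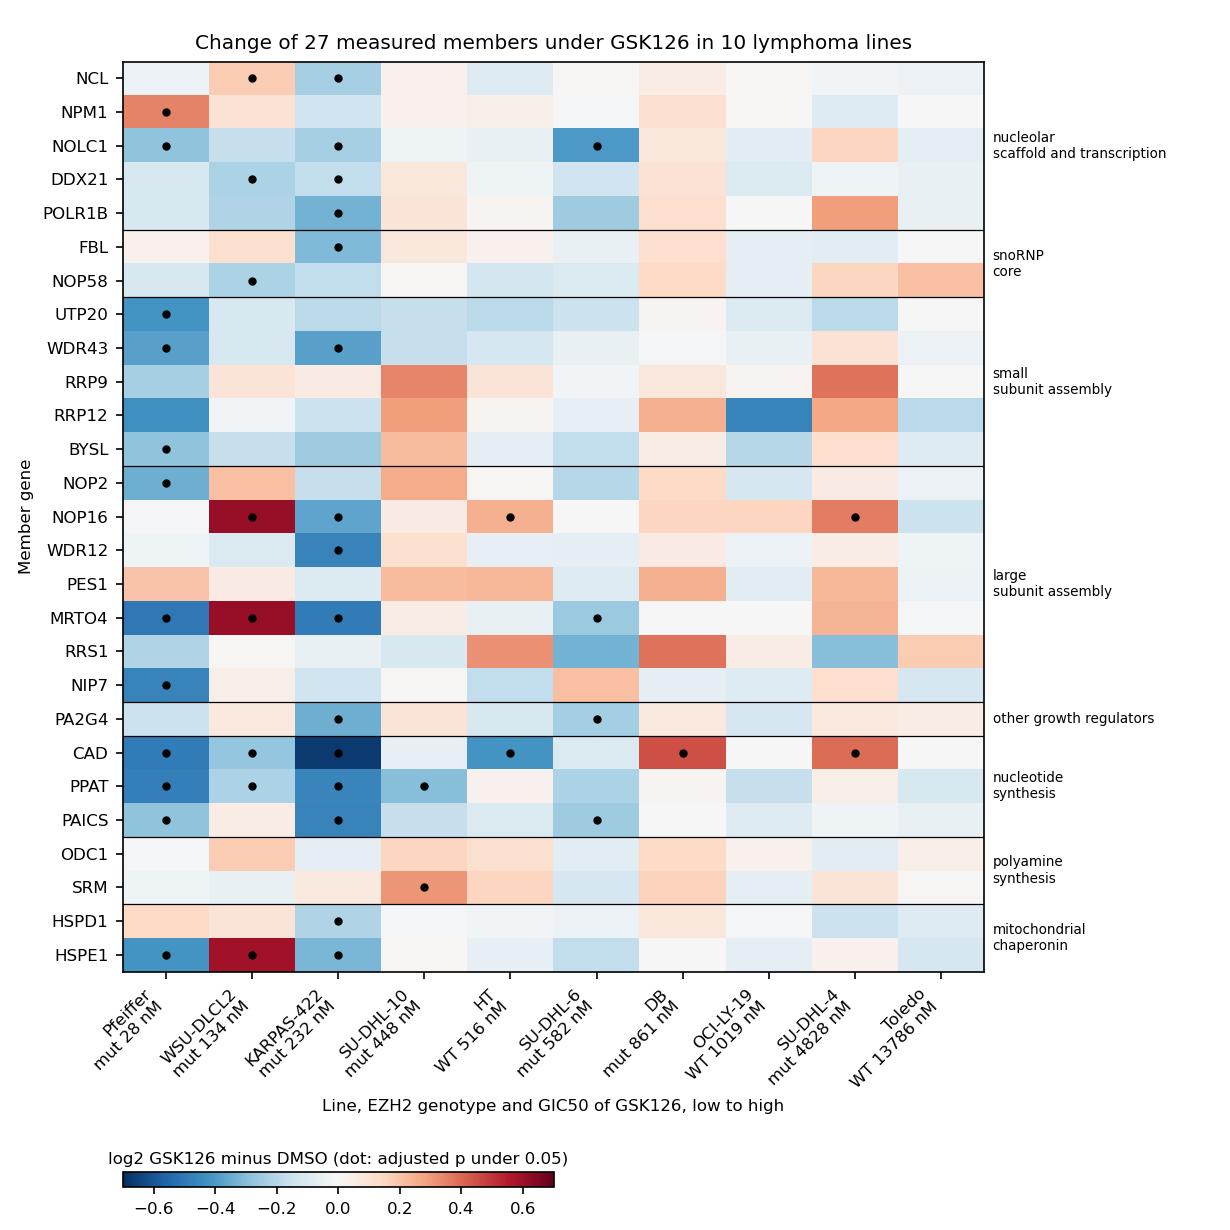
Change under GSK126 of the 27 measured members (down the page, by role) in the 10 lines (across, by GIC50). Colour gives log2 GSK126 minus DMSO, and a dot marks an adjusted p under 0.05 in limma. KARPAS-422 holds 15 dots and no rise among them, Pfeiffer 12 with 11 falls, and WSU-DLCL2 8 with 4 rises.

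Counting both directions, 15 members were called in KARPAS-422 (28.9% of all genes), 12 in Pfeiffer (24.6%), 8 in WSU-DLCL2 (26.6%), 4 in SU-DHL-6 (11.0%), 2 in SU-DHL-10 (18.2%), 2 in HT (9.32%), 2 in SU-DHL-4 (2.6%) and 1 in DB (3.12%), and none in OCI-LY-19 (2.41%) or Toledo (0.164%). In WSU-DLCL2, 4 members rose against 13.9% of all genes and 4 fell against 12.7%, both near the background. The share of members called in SU-DHL-10 was below its background. Pfeiffer had 1 rise (14.6% of all genes), SU-DHL-10 had 1 rise (11.0%) and 1 fall (7.16%), HT had 1 rise (6.31%) and 1 fall (3.0%), DB had 1 rise (2.5%) and SU-DHL-4 had 2 rises (2.14%). OCI-LY-19 (1.97% of all genes risen and 0.44% fallen) and Toledo (0.138% and 0.0263%) had no called member, and 0 members fell in DB (0.618%) and SU-DHL-4 (0.454%). No member rose in KARPAS-422 (15.5%) or SU-DHL-6 (7.42%).

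The median change of the 27 members was -0.23 in KARPAS-422, where the median of all genes was 0.01, and -0.21 in Pfeiffer, where it was 0.07. It was -0.10 in SU-DHL-6 (all genes 0.03), and it lay between -0.07 and 0.08 in the other lines. Both GSK126 arrays lay below both DMSO arrays for 22 of 27 members in KARPAS-422 (29.7% of all genes), 17 in Pfeiffer (24.4%) and 16 in SU-DHL-6 (21.2%). Both lay above for 15 members in DB (24.0%), below for 9 and above for 8 in WSU-DLCL2 (26.4% and 36.5%), and above for none in KARPAS-422 (31.0%) or SU-DHL-6 (28.0%). In OCI-LY-19, which had no call, 14 members lay below (20.3%) and 1 above (24.0%). Scaling the arrays to equal medians moved the median of all genes to -0.14 in KARPAS-422 and SU-DHL-6, -0.07 in Pfeiffer, -0.12 in Toledo, -0.16 in WSU-DLCL2 and -0.17 in SU-DHL-10. Relative to all genes, the members' median was then -0.26 in KARPAS-422 and -0.29 in Pfeiffer, close to the -0.24 and -0.28 without that scaling, and under quantile normalization it was -0.14 and -0.25. The split of calls moved with the scaling: at equal medians 3 members rose and 11 fell in WSU-DLCL2, 6 fell and 0 rose in SU-DHL-10, 11 fell in SU-DHL-6, and SU-DHL-4 had 0 calls. The share of all genes that fell moved too, and was then 24.3% in WSU-DLCL2, 21.8% in SU-DHL-10 and 12.4% in SU-DHL-6, against which 6 of 27 members in SU-DHL-10 is near the background.

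Among the nucleolar scaffold and transcription members, 4 of 5 fell in KARPAS-422. These were NCL (nucleolin, -0.23), NOLC1 (a nucleolar chaperone of snoRNPs, -0.23), DDX21 (-0.17) and POLR1B (a core subunit of RNA polymerase I, -0.33). NOLC1 also fell in SU-DHL-6, with 12.57 and 12.52 on GSK126 arrays, against 13.00 and 12.88 on DMSO arrays (change -0.40, SE 0.07, adjusted p = 0.000252 in limma). The GSK126 arrays lay below the DMSO arrays, and NOLC1 fell in Pfeiffer too (-0.28). NCL rose in WSU-DLCL2 by 0.18, a call that equal medians turned to -0.07 and quantile normalization moved to 0.09 (adjusted p = 0.283, limma). Under quantile normalization NCL, NOLC1 and DDX21 lost their calls in KARPAS-422 (-0.12, -0.17 and -0.06).

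NPM1 (nucleophosmin, a histone and ribosomal protein chaperone of the nucleolus) was the single member that rose in Pfeiffer. Its levels were 14.86 and 14.95 on GSK126 arrays, against 14.49 and 14.62 on DMSO arrays (change 0.35, SE 0.07, adjusted p = 0.000461 in limma), without overlap. The rise depended on the scaling: it was 0.04 after quantile normalization (adjusted p = 0.575) and 0.20 at equal medians (adjusted p = 0.229). The other NPM1 probe sets changed by 0.18 and 0.12 in Pfeiffer.

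Of the snoRNP core, FBL (fibrillarin, the methyltransferase of box C/D snoRNPs) fell in KARPAS-422, with 13.58 and 13.62 on GSK126 arrays, against 13.92 and 13.89 on DMSO arrays (change -0.31, SE 0.06, adjusted p = 0.00027 in limma). NOP58, a core protein of the same particles, fell in WSU-DLCL2 by 0.22 (adjusted p = 0.0483) and without 1 of that line's 4 arrays its change lay between -0.27 and -0.17, never called.

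Among the small subunit members, UTP20, WDR43 and BYSL fell in Pfeiffer (3 of 5) and WDR43 in KARPAS-422. UTP20 and WDR43 belong to the processome that cuts the early precursor, and BYSL acts late in small subunit maturation. WDR43 had 10.32 and 10.52 on GSK126 arrays of Pfeiffer, against 10.83 and 10.77 on DMSO arrays (change -0.38, SE 0.08, adjusted p = 0.000646 in limma). In KARPAS-422 it had 10.86 and 10.67 on GSK126 arrays, against 11.07 and 11.22 on DMSO arrays, again -0.38. The arrays did not overlap in either line. BYSL in Pfeiffer (-0.28, adjusted p = 0.0488) lost its call without any 1 of the 4 Pfeiffer arrays (-0.32 to -0.24). RRP9 and RRP12 had no call, with changes between -0.23 and 0.38 for RRP9 and between -0.47 and 0.29 for RRP12.

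Among the large subunit members, MRTO4 changed most, and in opposite directions between lines. MRTO4 is a relative of the ribosomal stalk protein P0 that holds its place during assembly. It had 10.90 and 10.60 on GSK126 arrays of Pfeiffer, against 11.29 and 11.20 on DMSO arrays (change -0.50, SE 0.09, adjusted p = 5.63e-05 in limma). In KARPAS-422 it had 11.13 and 10.98 on GSK126 arrays, against 11.63 and 11.46 on DMSO arrays (change -0.49, adjusted p = 5.2e-05). In WSU-DLCL2 it had 10.78 and 10.75 on GSK126 arrays, against 10.30 and 10.01 on DMSO arrays (change 0.61, adjusted p = 2.79e-06). The groups did not overlap in any of these lines, and the second MRTO4 probe set changed in the same directions (-1.14, -0.54 and 0.35). In SU-DHL-6 it fell by 0.26 (adjusted p = 0.0451), a call lost without any 1 of that line's 4 arrays (-0.30 to -0.23). In the remaining 6 lines its change lay between -0.05 and 0.24 without a call.

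NOP16 rose in 3 lines and fell in 1. It had 11.07 and 11.14 on GSK126 arrays of WSU-DLCL2, against 10.41 and 10.59 on DMSO arrays (change 0.61, SE 0.08, adjusted p = 1.26e-06 in limma). It also rose in SU-DHL-4, with 11.68 and 11.56 on GSK126 arrays, against 11.19 and 11.34 on DMSO arrays (0.36, adjusted p = 0.0102), and in HT by 0.25 (adjusted p = 0.0434). In KARPAS-422 it had 12.43 and 12.38 on GSK126 arrays, against 12.78 and 12.77 on DMSO arrays (-0.37, adjusted p = 0.000729). No pair of groups overlapped in these lines. NOP16 has 4 probe sets: the next brightest changed by 0.31 in WSU-DLCL2 and -0.36 in KARPAS-422, and with the mean of all 4, in which 2 are dim, the change was 0.26 in WSU-DLCL2 and turned to 0.06 in KARPAS-422, neither called.

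WDR12, which forms the PeBoW complex with PES1 and BOP1, was called in 1 line, KARPAS-422. It had 12.43 and 12.38 on GSK126 arrays, against 12.90 and 12.85 on DMSO arrays (change -0.47, SE 0.06, adjusted p = 1.83e-07 in limma), and in the other lines it changed by -0.10 to 0.11. With the mean of its 3 probe sets the KARPAS-422 change was -0.23 (adjusted p = 0.0576). Its partner PES1 had no call in any line and changed by -0.10 in KARPAS-422 and by 0.25 in DB. NIP7, an assembly factor of the large subunit, fell in Pfeiffer, with 9.94 and 10.13 on GSK126 arrays, against 10.70 and 10.31 on DMSO arrays (-0.47, adjusted p = 0.014). NOP2 fell there by 0.34 (adjusted p = 0.0264). NIP7 was at -0.37 without GSK126 replicate 1 of Pfeiffer and at -0.27 without its DMSO replicate 1, and NOP2 at -0.17 without GSK126 replicate 2, none of them called. PA2G4, a growth regulator that binds ribosomes, fell in KARPAS-422 (-0.34) and SU-DHL-6 (-0.24).

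Of the nucleotide synthesis enzymes, all 3 fell in Pfeiffer and all 3 in KARPAS-422, with medians of -0.48 and -0.47. CAD, the enzyme that starts pyrimidine synthesis, was called in 6 lines, more than any other member, and fell in 4 and rose in 2. The largest change of any member in any line was that of CAD in KARPAS-422, with 10.80 and 10.94 on GSK126 arrays, against 11.54 on both DMSO arrays (-0.67, 0.63-fold, adjusted p = 7.91e-06 in limma). It had 11.25 and 11.36 on GSK126 arrays of Pfeiffer, against 11.79 and 11.81 on DMSO arrays (-0.49, adjusted p = 0.000494). In HT it had 10.88 and 10.85 on GSK126 arrays, against 11.27 and 11.29 on DMSO arrays (-0.42, adjusted p = 0.00732). These groups did not overlap, and HT is wild type for EZH2 while the other lines are mutant. The HT call was lost without DMSO replicate 2 or GSK126 replicate 2 (-0.40 in both cases).

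CAD rose in DB, with 12.59 and 12.03 on GSK126 arrays, against 11.91 and 11.81 on DMSO arrays (0.45, adjusted p = 0.00884 in limma), which was 0.16 without GSK126 replicate 1 and 0.39 without DMSO replicate 2, neither called. It rose in SU-DHL-4, with 11.41 and 11.56 on GSK126 arrays, against 11.11 and 11.08 on DMSO arrays (0.39, adjusted p = 0.0298), a call lost without any 1 of the 4 arrays (0.31 to 0.47). In WSU-DLCL2 it fell by 0.27 (adjusted p = 0.0473), and the mean with its second, dim probe set gave 0.05. With that mean no line had a called change of CAD: it was -0.40 in KARPAS-422 and -0.40 in Pfeiffer.

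PPAT, which catalyses the committed step of purine synthesis, fell in 4 lines and rose in none. It had 9.70 and 9.72 on GSK126 arrays of Pfeiffer, against 10.14 and 10.25 on DMSO arrays (-0.48, SE 0.07, adjusted p = 1.39e-05 in limma). In KARPAS-422 it had 10.92 and 10.87 on GSK126 arrays, against 11.36 on both DMSO arrays (-0.46, adjusted p = 1.76e-05). In SU-DHL-10 it had 11.02 and 11.10 on GSK126 arrays, against 11.40 and 11.32 on DMSO arrays (-0.30, adjusted p = 0.00459). The groups did not overlap, and its second bright probe set changed by -0.41, -0.48 and -0.36 in these lines. In WSU-DLCL2 PPAT fell by 0.22 (adjusted p = 0.0293), and the second bright probe set changed by -0.23. The third probe set, which is dim, changed by 0.49 there, and the mean of all 3 gave 0.01. PAICS, a later enzyme of the same pathway, had 13.25 and 13.24 on GSK126 arrays of KARPAS-422, against 13.75 and 13.68 on DMSO arrays (-0.47, adjusted p = 1.15e-06), and fell in Pfeiffer (-0.28) and SU-DHL-6 (-0.25).

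**Figure D3:**
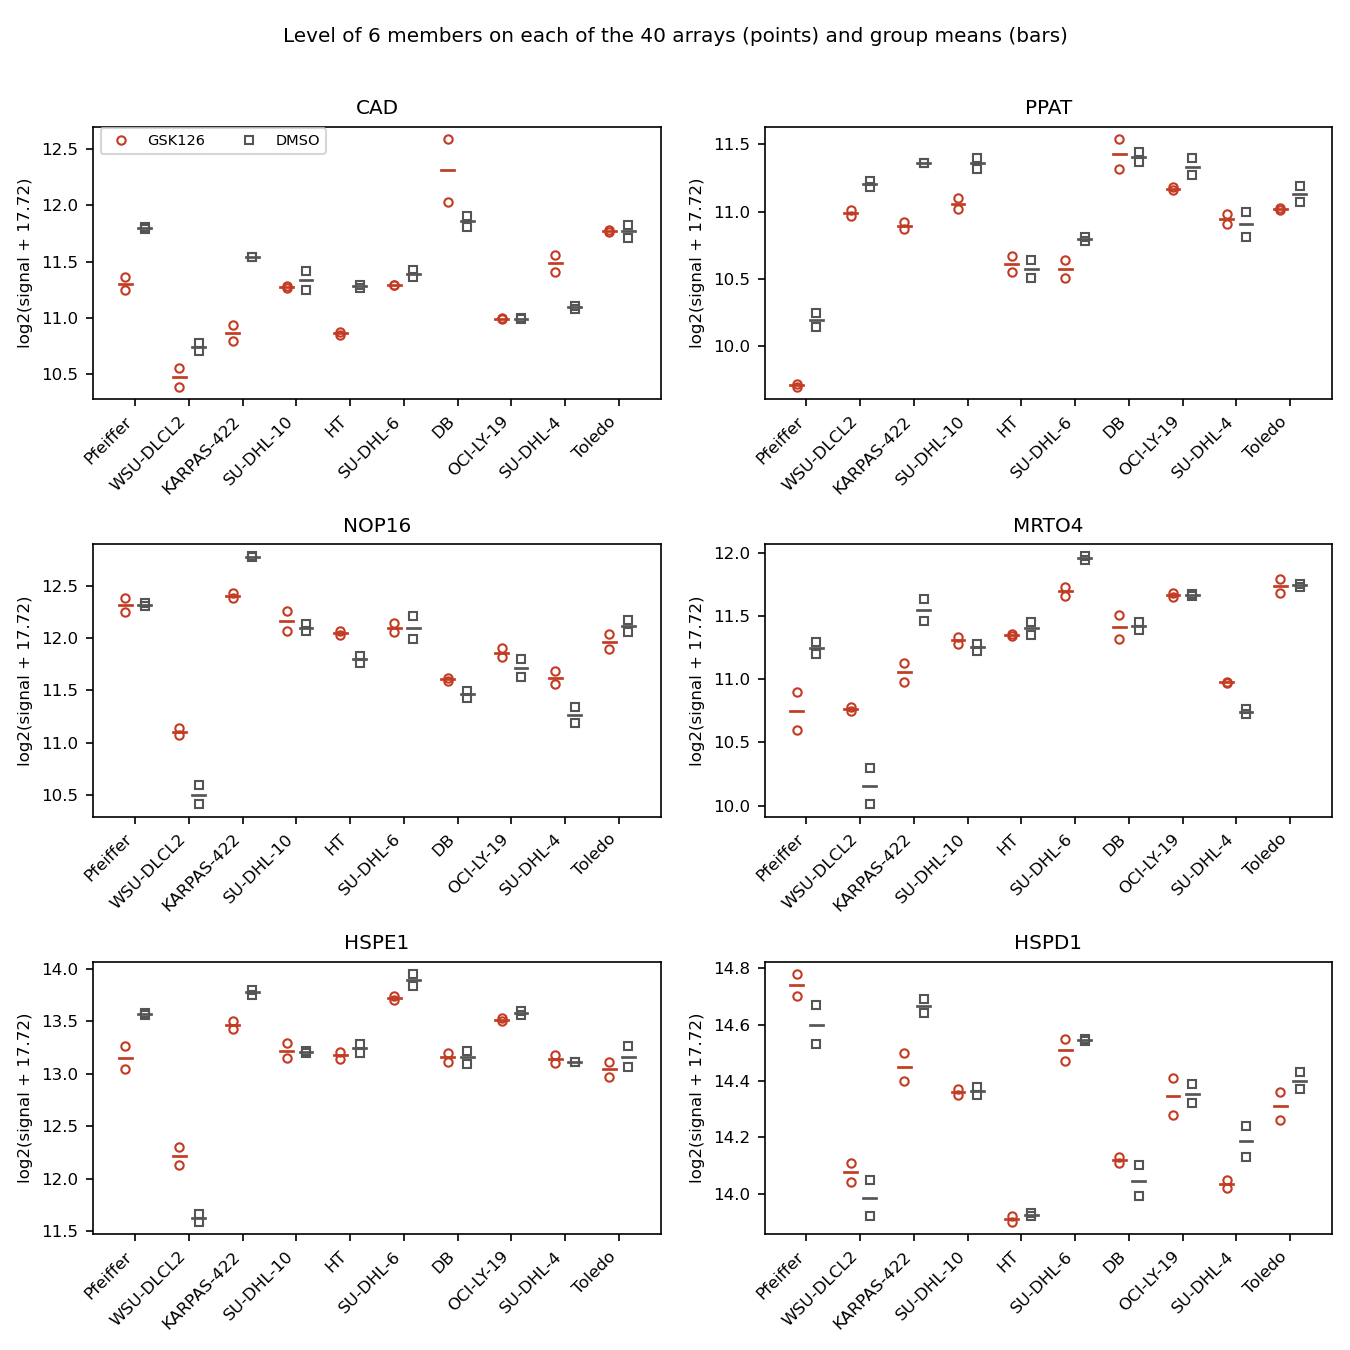
Level of 6 members on each of the 40 arrays, as log2 of signal plus 17.72, in the 10 lines ordered by GIC50; circles are GSK126 arrays, squares DMSO arrays and bars the means of 2 arrays. The axes do not start at 0 and differ between panels. MRTO4, NOP16 and HSPE1 lie higher with GSK126 in WSU-DLCL2 and lower in KARPAS-422, and HSPD1 spans a narrower range.

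The polyamine enzymes had 1 call in all. ODC1, which makes putrescine, had no call in any line, with changes between -0.08 and 0.18. SRM, spermidine synthase, rose in SU-DHL-10, with 12.08 on both GSK126 arrays, against 11.82 and 11.73 on DMSO arrays (0.31, SE 0.09, adjusted p = 0.0107 in limma). At equal medians the SRM change was 0.06 and not called.

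The chaperonin genes share a promoter window, and on the probe sets used HSPE1 was called in 3 lines and HSPD1 in 1. HSPE1 has 1 probe set and HSPD1 has 5. HSPE1 had 13.04 and 13.26 on GSK126 arrays of Pfeiffer, against 13.56 and 13.58 on DMSO arrays (-0.42, SE 0.07, adjusted p = 6.29e-05 in limma). In WSU-DLCL2 it had 12.13 and 12.30 on GSK126 arrays, against 11.66 and 11.59 on DMSO arrays (0.59, adjusted p = 4.34e-07). In KARPAS-422 it had 13.50 and 13.43 on GSK126 arrays, against 13.80 and 13.75 on DMSO arrays (-0.32, adjusted p = 0.00126), a change that was -0.19 and not called after quantile normalization. HSPD1 had 14.70 and 14.78 on GSK126 arrays of Pfeiffer, against 14.53 and 14.67 on DMSO arrays (0.14, adjusted p = 0.082), and changed by 0.09 in WSU-DLCL2 (adjusted p = 0.277). It fell in KARPAS-422 by 0.21 (adjusted p = 0.00641), which quantile normalization moved to -0.10 without a call. The second HSPD1 probe set, also bright, changed by -0.10 in Pfeiffer and -0.31 in KARPAS-422. The dimmer HSPD1 probe sets changed by -1.38, -0.71 and 0.97 in Pfeiffer, and by -0.11, -0.26 and 0.24 in KARPAS-422. HSPD1 has the highest mean signal of the members' probe sets, and the difference between HSPE1 and HSPD1 was not tested.

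Members with and without CACGTG in the window were both among those that changed. In Pfeiffer 7 of 12 members with it and 4 of 11 without it were called (24.6% of all genes), with medians of -0.31 and -0.11. In KARPAS-422 the counts were 6 of 12 with it and 8 of 11 without it (28.9% of all genes), with medians of -0.23 and -0.33. In WSU-DLCL2 they were 3 of 12 and 4 of 11 (26.6% of all genes), with medians of 0.07 and 0.05. The other lines had at most 2 calls in either group. These are descriptions, with no test.

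The response of the members differed among lines. In the moderated F test (limma) among the 10 line responses, 19 of 27 members were called, where 38.8% of all genes were. The smallest adjusted p were those of MRTO4 (6e-07), HSPE1 (1.34e-06), CAD (2.67e-06) and NOP16 (6.67e-06). The 8 members without a call included UTP20, RRP9, RRP12, PES1, NIP7 and ODC1. With the replicate number as a block, or without the trend of variance on level, 12 members were called. The share of all genes called in those fits is not given here, so the drop is not read as particular to the members.

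Among the 3 lines of lowest GIC50, the response of part of the set differed between WSU-DLCL2 and the other two. The KARPAS-422 change was lower than the WSU-DLCL2 change for 10 of 27 members (10.2% of all genes) and higher for none (11.1%). The largest of these differences were MRTO4 (-1.10, SE 0.12, adjusted p = 7.86e-08 in limma) and NOP16 (-0.98, adjusted p = 2.21e-07). The WSU-DLCL2 change was higher than the Pfeiffer change for 5 members (7.27%) and lower for none (9.15%), led by MRTO4 (1.11, adjusted p = 1.21e-07) and HSPE1 (1.01, adjusted p = 3.61e-08). The CAD difference between KARPAS-422 and WSU-DLCL2 (-0.39, adjusted p = 0.0491) was not called at equal medians (-0.32). Nor were those of NCL, FBL, WDR12, PA2G4 and HSPD1, all in the same direction as before. MRTO4, NOP16, HSPE1 and PAICS kept their calls between these lines. Between WSU-DLCL2 and Pfeiffer, NOP2 and PAICS lost theirs at equal medians. The 3 lines' DMSO and GSK126 arrays enter more than 1 of these differences, so the comparisons share arrays.

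Between KARPAS-422 and Pfeiffer the differences were fewer. The KARPAS-422 change was lower for 5 members (9.43% of all genes) and higher for none (8.96%). NPM1 differed by -0.49 (adjusted p = 0.000863 in limma) and WDR12 by -0.44 (adjusted p = 0.000206). The NPM1 difference was -0.06 after quantile normalization and not called, and the WDR12 difference was not called with the mean of probe sets. HSPD1 differed by -0.35, which turned to 0.06 after quantile normalization and to 0.08 with the mean of probe sets. The FBL (-0.34) and NOP16 (-0.36) differences were not called under quantile normalization or at equal medians.

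Over lines as replicates, no member passed the test. For the mean response of the 7 mutant lines, 0 of 27 members were called (0.00657% of all genes, which is 1 gene), 20 of 27 estimates were negative, and the smallest adjusted p was 0.0896 in limma over the 10 line values. UTP20, WDR43, PPAT and PAICS (4 members, 14.8%) had an unadjusted p under 0.05, a smaller share than the 25.1% of all genes. At equal medians 4 members fell, where 11.2% of all genes fell and 13.4% were called, so that count is near the background. For the mean of the 3 wild type lines, 0 members were called (0.0% of all genes, unadjusted 0). For mutant minus wild type, 0 were called (0.0%), the estimates lay between -0.27 and 0.24, and 0 members had an unadjusted p under 0.05.

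For a slope of the response on log10 GIC50, 0 members were called (0.0% of all genes, smallest adjusted p 0.435 in limma). The slope was positive for 20 of 27 members, and 4 (NOP58, WDR43, CAD and PPAT) had an unadjusted p under 0.05, where 9.34% of all genes had. With the code of the sample descriptions as a block, 0 members were called in each of these comparisons over lines.

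MYC itself did not follow one direction. It rose in WSU-DLCL2, with 12.93 and 12.97 on GSK126 arrays, against 12.27 and 12.54 on DMSO arrays (0.55, SE 0.07, adjusted p = 1.26e-06 in limma). It rose in SU-DHL-10, with 12.88 and 12.91 on GSK126 arrays, against 12.56 on both DMSO arrays (0.34, adjusted p = 0.00118), a call lost at equal medians (0.08, adjusted p = 0.564). It fell in Pfeiffer, with 12.11 on both GSK126 arrays, against 12.26 and 12.39 on DMSO arrays (-0.22, adjusted p = 0.0289), and after quantile normalization this was -0.19 (adjusted p = 0.0663). In KARPAS-422 its change was -0.11 (adjusted p = 0.276), and -0.29 at equal medians (adjusted p = 0.0159).

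Over the 10 lines, MYC change and the median change of the members had a Pearson r of 0.67 and a Spearman rho of 0.68, and r was 0.60 without the 2 lines of most extreme MYC change. The points come from the same arrays and share their scaling, so this is a description only. The MYC DMSO level lay between 11.77 in HT and 13.64 in OCI-LY-19, and its r with the members' median centred level was 0.20. Of the members, PA2G4 (r = 0.86) and NOP2 (0.84) had high r with the median change of the other members over the 10 lines and kept it without the 2 most extreme lines (0.84 and 0.82). PAICS had 0.85, and 0.57 without them. HSPD1 had 0.13 and 0.15, and NPM1 had -0.16 and, without them, 0.14.

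Related genes outside the set were read in the 3 lines of lowest GIC50. The RNA polymerase I list includes POLR2E, POLR2F, POLR2H, POLR2K and POLR2L, subunits that it shares with other RNA polymerases. In KARPAS-422, where 13.4% of all genes fell and 15.5% rose, 21 of 47 other small subunit factors fell and 3 rose, 15 of 48 other large subunit factors fell and 1 rose, and 9 of 19 RNA polymerase I genes fell and 1 rose. Also in KARPAS-422, 8 of 16 other nucleotide synthesis genes fell and none rose, and 12 of 17 mitochondrial chaperone and import genes fell and none rose. Of 14 other snoRNP and assembly genes 3 fell and none rose there, and of 12 other polyamine and hypusine genes 5 fell and 1 rose. The sizes of these counts depended on the processing. At equal medians, where 21.7% of all genes fell, the falls were 32 small subunit, 30 large subunit, 9 RNA polymerase I and 9 snoRNP genes. With the mean of probe sets they were 11, 9, 5 and 3, and under quantile normalization 19, 9, 6 and 3. The polyamine falls were 8 at equal medians. Of all these, GMPS, which makes GMP, had 12.11 and 12.18 on GSK126 arrays, against 12.82 on both DMSO arrays (-0.68, adjusted p = 1.13e-10 in limma), and PFAS of purine synthesis changed by -0.53. UBTF, the nucleolar activator of RNA polymerase I, fell by 0.45, TRAP1, a mitochondrial chaperone, by 0.52 and TOMM40, the import channel, by 0.55. POLR1E of the RNA polymerase I list fell by 0.55 and TBL3 of the small subunit list by 0.58. The largest called change of the small subunit list was a rise, that of NOL6 (0.66), and SAT1 of the polyamine list rose by 0.46.

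In Pfeiffer, where 9.93% of all genes fell and 14.6% rose, 9 of 47 other small subunit factors fell and 3 rose, 13 of 48 large subunit factors fell and 2 rose, and 6 of 19 RNA polymerase I genes fell and 2 rose. At equal medians, where 14.5% of all genes fell, the falls were 18, 19 and 11 with no rise. TAF1D of the RNA polymerase I list rose by 0.56, which was 0.41 and not called at equal medians. GNL3L of the large subunit list fell by 1.38, with 10.24 and 8.43 on GSK126 arrays, against 10.68 and 10.74 on DMSO arrays. RUVBL1, a helper of snoRNP assembly, fell by 0.49 (adjusted p = 5.77e-08 in limma), and AMD1, which supplies the aminopropyl donor for polyamines, had 11.06 and 11.36 on GSK126 arrays, against 11.83 and 11.93 on DMSO arrays (-0.67, adjusted p = 5.19e-08). Their lists held 2 falls and 1 rise among 14 snoRNP and assembly genes, and 3 falls and 1 rise among 12 polyamine and hypusine genes. Of the 11 tested genes of MYC and its network, 3 rose and 2 fell in Pfeiffer. MXD1 and MXI1, partners of MAX that oppose MYC, rose there by 1.05 and 0.64, while MXD3, another such partner that was named after its values were seen, fell by 0.47, and MXD1 changed by -0.30 in KARPAS-422 without a call. MXI1 rose in KARPAS-422 by 0.77, with 10.44 and 10.29 on GSK126 arrays, against 9.46 and 9.74 on DMSO arrays (adjusted p = 7.33e-08). In WSU-DLCL2, where 13.9% of all genes rose and 12.7% fell, 6 of 19 RNA polymerase I genes rose and 3 fell, 7 of 48 large subunit genes rose and 9 fell, and 4 of 47 small subunit genes rose and 11 fell. At equal medians, where 24.3% of all genes fell, these splits turned to 2 and 6, 0 and 23, and 0 and 21. In that line LONP1, a mitochondrial protease, had 11.35 and 11.30 on GSK126 arrays, against 12.58 and 12.46 on DMSO arrays (-1.20, adjusted p = 4.85e-10 in limma). POLR2L of the RNA polymerase I list (0.83), OAZ2 of the polyamine list (0.54) and NHP2 of the snoRNP list (0.48) rose there. In WSU-DLCL2, 6 of 17 mitochondrial chaperone and import genes fell and 3 rose. Of 12 polyamine genes 1 fell and 2 rose, and of 14 snoRNP genes 4 fell and 3 rose.

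Of the cytosolic ribosomal proteins, 50 of 54 tested (81 listed) rose in Pfeiffer, with a median of 0.33, and this did not hold under either other scaling: 0 were called at equal medians (median 0.17) and 1 after quantile normalization (median 0.02). In KARPAS-422 3 fell and none rose (median -0.09), and 17 fell at equal medians (median -0.26). In WSU-DLCL2 2 rose and none fell (median 0.08), 13 rose with the mean of probe sets, and the median turned to -0.18 at equal medians.

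**Figure D4:**
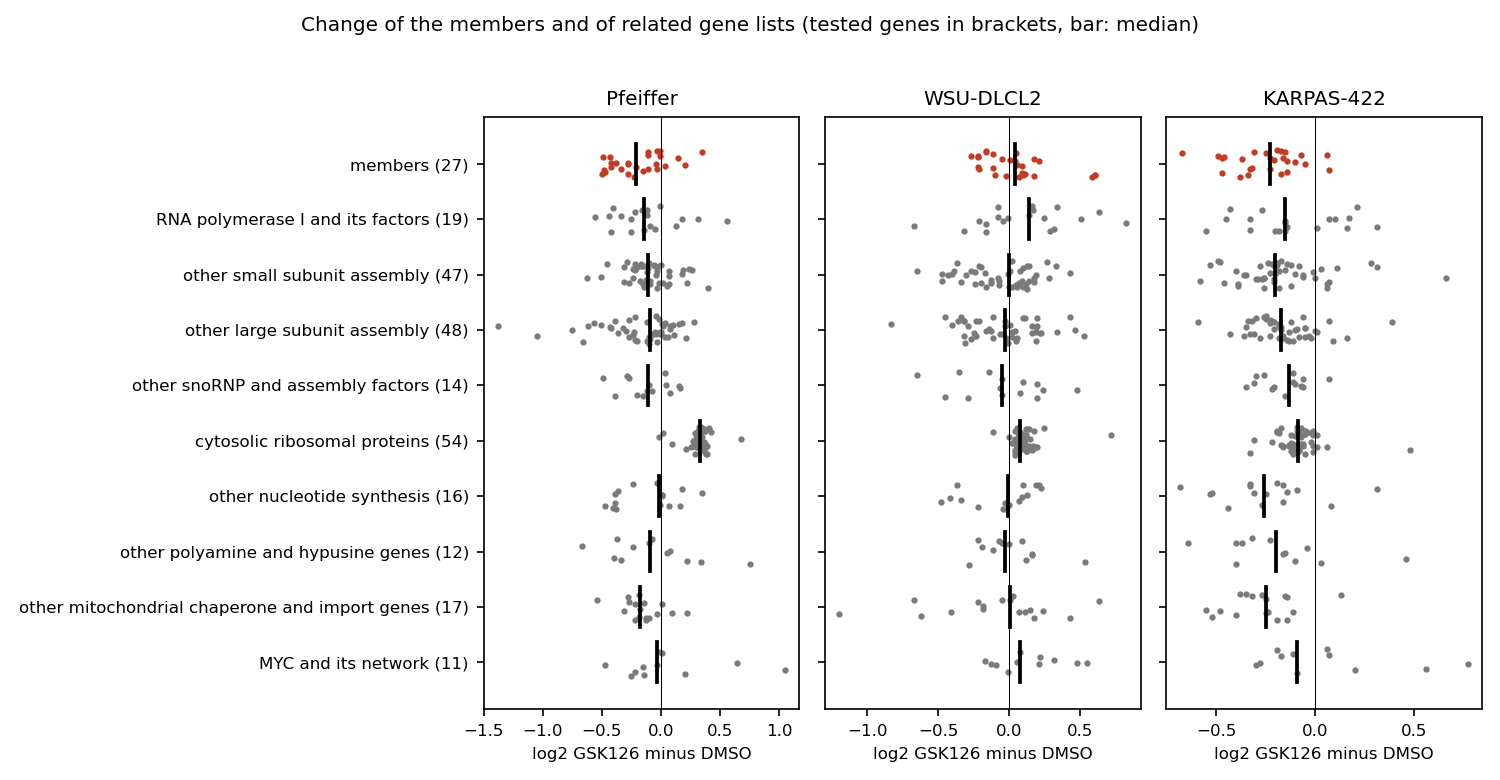
Change under GSK126 (log2 GSK126 minus DMSO) of the 27 members (red) and of the genes of 9 related lists (grey) in Pfeiffer, WSU-DLCL2 and KARPAS-422; points are genes, bars are medians, brackets give the tested genes, and the scale differs between panels. The members' median is -0.21 in Pfeiffer, 0.04 in WSU-DLCL2 and -0.23 in KARPAS-422, and the cytosolic ribosomal proteins stand at 0.33, 0.08 and -0.09.

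The probe sets of a member did not always change alike. Of the members, 16 had several probe sets and 11 had 1. Among 35 called pairs of member and line with another probe set, every other set changed in the same direction in 24. With the mean of a gene's probe sets, 37 of the 66 called changes and differences held, 24 lost the call and 5 turned. The calls that held under every alternative tried numbered 14 of 46 in a line and 5 of 20 between lines, and among them were MRTO4 in Pfeiffer, KARPAS-422 and WSU-DLCL2, HSPE1 in Pfeiffer and WSU-DLCL2, PPAT, WDR43 and NOLC1 in Pfeiffer, and PPAT, PAICS, WDR43, PA2G4 and FBL in KARPAS-422.

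Leaving out 1 array of the lines compared cost 23 of the 46 calls within a line and 5 of the 20 differences between lines. In Pfeiffer, UTP20 was at -0.35 without DMSO replicate 2, and NOP2 was also not called without either DMSO array (-0.36 to -0.17 over all 3 cases). In KARPAS-422, POLR1B was at -0.27 without GSK126 replicate 2, NOLC1 between -0.22 and -0.16 without that array or DMSO replicate 1, HSPD1 between -0.19 and -0.16 without GSK126 replicate 1 or DMSO replicate 1, and DDX21 between -0.18 and -0.12 without GSK126 replicate 1 or either DMSO array. In WSU-DLCL2, PPAT lay between -0.25 and -0.19 without any 1 array, CAD between -0.31 and -0.19 without GSK126 replicate 1 or either DMSO array, NCL between 0.15 and 0.20 without GSK126 replicate 2 or either DMSO array, and DDX21 was at -0.18 without DMSO replicate 1. In SU-DHL-6, PA2G4 (-0.18 to -0.16) and PAICS (-0.24 to -0.21) lost their calls without GSK126 replicate 1 or DMSO replicate 1.

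In SU-DHL-10, PPAT was at -0.26 without GSK126 replicate 1 or DMSO replicate 1, and SRM lay between 0.27 and 0.31 without either GSK126 array or DMSO replicate 2. NOP16 lay between 0.22 and 0.29 in HT without any 1 array and between 0.28 and 0.30 in SU-DHL-4 without GSK126 replicate 1 or DMSO replicate 1. Between lines, the CAD difference of KARPAS-422 and WSU-DLCL2 lay between -0.43 and -0.31 in 6 such cases and the HSPD1 difference between -0.26 and -0.25 in 2. The NOP16 difference of KARPAS-422 and Pfeiffer lay between -0.37 and -0.30 in 6 cases. The NOP2 difference of WSU-DLCL2 and Pfeiffer lay between 0.37 and 0.52 in 4 cases, and the PAICS difference was 0.21 without DMSO replicate 2 of WSU-DLCL2. None of these turned in direction.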

How the data were processed

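RNA from 10 lymphoma lines was measured on 40 one-colour Affymetrix arrays. The deposited values are log2 signals made by the authors with MAS5 (version not stated in the labels), per the submitters' processing notes and the file's values: the linear signals had a trimmed mean of 500 on every array after 2% was left off each end. Median signals per array were 58.9 to 88.7, and precision is limited by how many arrays each group has. Values were put back on the linear scale, 17.72 was added and log2 was taken again. Of 54675 probe sets, 41091 carried 1 symbol, 1801 several and 11721 none, and 62 were controls. Of the 41091, 41037 had a gene ID found in the RefSeq table, and 0 symbols changed. Per gene the single-symbol probe set of highest mean was kept, and 15211 of 19775 genes lay above the array median on at least 2 arrays.

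All 40 arrays were fitted as 20 group means in limma 3.58.1 (R 4.3.3), with eBayes and an intensity trend, and every adjusted p in the text comes from limma with Benjamini-Hochberg adjustment over all genes tested, at 0.05. Comparisons over lines used 10 line values. Figures and summaries used Python 3.11.15. The fits were tried on simulated data with 100 changed genes per size of change. In KARPAS-422, 40% of log2 changes of 0.5 and 66% of changes of 1.0 were called, with 7 false calls. The changed genes were drawn at random from all tested genes, many of them dimmer than the members. Far fewer genes were changed than the 28.9% called in KARPAS-422, which makes the adjustment stricter. These shares therefore need not hold for the members, and a member without a call can still have changed. For the mean of the mutant lines, with the same change set in each, 74% and 87% were called, with 6 false calls.

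The members and lists were chosen with earlier results of these data known, so their counts are no independent support. Members were named by rule: the called members of largest change per line, and those called in most and fewest lines. The rule also took those of largest and smallest SD under DMSO, of smallest p among lines and of largest difference between lines. For other lists it gave the 2 called genes of largest change in each of 3 lines, and only part of these are named. The alternatives were a pseudocount of 1, quantile normalization, equal medians, no filter, the mean of probe sets, a replicate block, no trend, each line alone, the description code as a block, and leaving out each array or line.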

Additional observations from a re-analysis of the deposited data

Results flagged for a closer look

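Some values stood apart or differed between lines by a test of the difference in limma, and no explanation was tested for any of them. Among the 7 mutant lines, 54 sets of line values were examined for a line far from the others, of which chance marks about 1 in 20, and 4 were found. The WDR12 change in KARPAS-422 was -0.47, with the nearest mutant line at -0.10, and its DMSO level there was 12.88, with the nearest at 11.94. The ODC1 DMSO level in Pfeiffer was 12.68 (nearest 13.83), and the HSPE1 DMSO level in WSU-DLCL2 was 11.63 (nearest 13.11).

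The change in KARPAS-422 minus that in WSU-DLCL2 was called for MRTO4 (-1.10), NOP16 (-0.98), HSPE1 (-0.91), PAICS (-0.53), FBL (-0.42), NCL (-0.41), PA2G4 (-0.41), CAD (-0.39), WDR12 (-0.37) and HSPD1 (-0.31). The change in WSU-DLCL2 minus that in Pfeiffer was called for MRTO4 (1.11), HSPE1 (1.01), NOP16 (0.61), NOP2 (0.54) and PAICS (0.34). The change in KARPAS-422 minus that in Pfeiffer was called for NPM1 (-0.49), WDR12 (-0.44), NOP16 (-0.36), HSPD1 (-0.35) and FBL (-0.34).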

How the results depend on the processing

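Of 66 called changes and differences, 14 of 46 within a line and 5 of 20 between lines held under every alternative; the mean of probe sets lost 24 and turned 5, quantile normalization lost 19 and turned 1, equal medians lost 16 and turned 1, each line fitted alone lost 10 of 46, no trend lost 7, no filter 6 and a pseudocount of 1 lost 5. The causes were not tested. Members called in WSU-DLCL2 (8) numbered 5 under quantile normalization (26.3% of all genes), 14 at equal medians (29.7%) and 4 with the mean of probe sets. SU-DHL-10 (2) had 6 of 27 at equal medians, where 26.9% of all genes were called, and 1 with the mean of probe sets. HT (2) had 1 at equal medians (5.57% of all genes), without the filter, with the block or without the trend, and 0 with the mean of probe sets. SU-DHL-6 (4) had 2 under quantile normalization (8.49% of all genes), 11 at equal medians (16.2%) and 1 when fitted alone. DB (1) had 0 with the mean of probe sets. SU-DHL-4 (2) had 0 at equal medians (1.26% of all genes), with the mean of probe sets or fitted alone, and 1 without the trend. The difference among 10 lines (19) had 12 without the trend (share of all genes not given). The mutant mean (0) had 4 at equal medians, where 13.4% of all genes were called (1 gene without that scaling). KARPAS-422 minus Pfeiffer (5) had 2 under quantile normalization, equal medians or the mean of probe sets, WSU-DLCL2 minus Pfeiffer (5) had 3 and KARPAS-422 minus WSU-DLCL2 (10) had 4 at equal medians. The shares of all genes called for these differences in those settings are not given here, so these drops are not read as particular to the members. The values that turned were NCL in WSU-DLCL2 at equal medians (-0.07), CAD (0.05) and PPAT (0.01) in WSU-DLCL2, NOP16 in KARPAS-422 (0.06) and in KARPAS-422 minus Pfeiffer (0.07) with the mean of probe sets, and HSPD1 in KARPAS-422 minus Pfeiffer under quantile normalization (0.06) and the mean of probe sets (0.08).

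Leaving out 1 array gave 12 to 14 calls in KARPAS-422 (15), 9 to 10 in Pfeiffer (12), 4 to 6 in WSU-DLCL2, 0 to 2 in SU-DHL-10, 0 to 1 in HT, 1 to 4 in SU-DHL-6, 0 to 1 in DB, 0 to 2 in SU-DHL-4 and 15 to 20 for the difference among lines. WSU-DLCL2 had 4 without DMSO replicate 1 and 5 without either GSK126 replicate, and SU-DHL-6 had 1 without DMSO replicate 1 or GSK126 replicate 1. SU-DHL-10 had 0 without GSK126 replicate 1 and 1 without DMSO replicate 1 or GSK126 replicate 2. HT had 0 without DMSO replicate 2 or GSK126 replicate 2 and 1 without either other array. DB had 0 without DMSO replicate 2 or GSK126 replicate 1. SU-DHL-4 had 0 without GSK126 replicate 1 and 1 without DMSO replicate 2 or GSK126 replicate 2. The labels do not say whether same-numbered samples were paired. Within a line, the differences between duplicates under DMSO and under GSK126 correlated over genes at -0.045 to 0.069. This shows no large shared deviation but cannot tell how the cultures were set up. With the replicate number as a block, 12 members differed among the 10 lines (share of all genes not given), and 4 of the 66 calls were lost.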
